A study of Mus musculus with 12 samples.

Results

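The genes of the Wnt pathway were followed across 12 single cultured c-Kit+ cardiac progenitor cells (CPCs). They were taken by name from the table of read counts: the Wnt ligands, the Frizzled receptors with the co-receptors Lrp5 and Lrp6, the secreted inhibitors (Sfrp, Frzb, Wif1 and Dkk genes), the R-spondins with their receptors and the ligases Znrf3 and Rnf43, the destruction complex genes with Ctnnb1, the TCF/LEF factors, and Porcn. The names gave 59 genes of the 21729 in the table. The rule used names alone, although the set was proposed with earlier results of these data known.

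The cells came from pooled hearts of female FVB mice aged 12 weeks, with no transgene or deletion named. Non-myocytes were depleted of blood lineages and enriched for c-Kit with magnetic beads, and were then grown on gelatin for 5 passages in medium with serum, LIF and bFGF at 10 ng/ml each and EGF at 20 ng/ml. Single cells were picked by mouth pipette and sequenced with a full-length cDNA kit. All 12 cells form 1 group under 1 culture condition, so they count as 1 sample: spreads describe these cells, and no test across cells was made.

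In canonical Wnt signalling a secreted Wnt protein binds Frizzled and LRP5 or LRP6, which stops a cytoplasmic complex built on Axin and APC from marking β-catenin for destruction, so that β-catenin reaches TCF/LEF factors on DNA. Other Wnt signals act through planar polarity proteins and ROR or RYK receptors without β-catenin. In the heart the pathway is known for its part in development, in scar formation and in the control of cardiac progenitors.

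Total counts ran from 3453708 to 5690184 per cell and 10022 to 11950 genes had a count. Values are given as CPM, the number of counts per 1000000 counts of the cell. A gene at 0 could still lie at up to 0.527 to 0.869 CPM, the level of 3 counts in the deepest and the shallowest cell. The reads carry no molecular identifiers, so these limits and all intervals cover counting error only. Cell 10 stood apart: its 10 endothelial marker genes summed to 7565 CPM, against 2.39 to 47.4 CPM in the other cells, although the endothelial genes Cldn5 and Vwf were at 0 throughout, and its 10 fibroblast marker genes summed to 219 CPM, the lowest of the 12 cells, of which Pdgfra made 175 CPM, its second highest value. Cell 11 had the highest sum of 10 mural markers, 3737 CPM with 172 CPM in the next cell, nearly all of it from Acta2, while Myh11 and Rgs5 were at 0 there. Cell 12 had the highest sum of fibroblast markers, 6764 CPM with 3003 CPM in the next. The part of these markers in values that peak in cells 11 and 12 was not tested. Kit itself, which encodes the sorted receptor, was counted in cell 10 alone, at 3.94 CPM.

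Of the 59 genes, 40 had a count in at least 1 cell (67.8%, exact 95% binomial interval 54.4 to 79.4%), beside 66.6% of all genes in the table. The pathway was thus counted somewhere in the culture about as often as genes at large. Genes present in every cell were fewer. A count in all 12 cells was found for 11 Wnt pathway genes (18.6%, 9.69 to 30.9%), beside 35.3% of all genes. A median of 10 CPM or more was reached by 10 (16.9%, 8.44 to 29.0%), beside 36.3% of all genes. These 10 were Ctnnb1, Sfrp1, Apc, Axin1, Tcf7l2, Fzd2, Dkk2, Lrp6, Fzd7 and Tcf7l1. A single cell counted between 19 and 28 of the 59 genes, with a median of 25. The plot of counted genes by cell shows that β-catenin, its complex, Sfrp1 and the lead receptors ran through the culture, while most ligands appeared in a few cells.

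**Figure D1:**
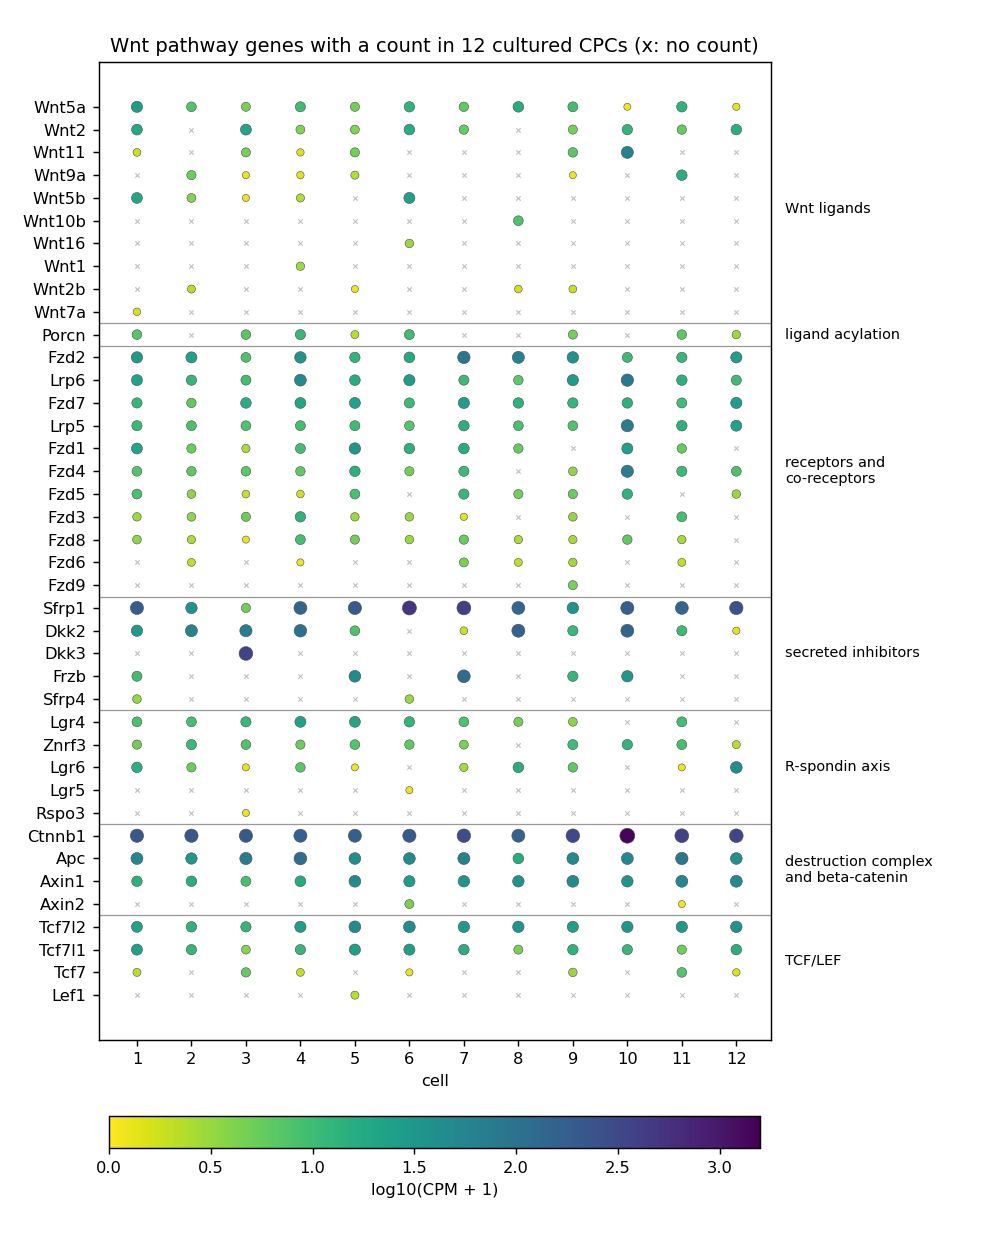
The 40 Wnt pathway genes with a count (rows, grouped by role) are shown in cells 1 to 12 (columns); circle size and colour give log10(CPM + 1) and a cross marks no count. Ctnnb1, Apc and Axin1 are filled in all 12 cells, and Wnt16, Wnt10b, Wnt7a, Wnt1, Dkk3, Lef1, Fzd9, Lgr5 and Rspo3 in 1 cell each.

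The promoters were searched for CTTTGA, the core of the site bound by TCF/LEF factors, on both strands (TCAAAG on the other). RefSeq promoter windows of GRCm38.p6, from 250 bases before to 50 bases after each start, were matched for 38 of the 59 genes. The core was found in windows of 6 of these genes (15.8%), which were Dkk1, Frzb, Fzd1, Lef1, Wnt11 and Wnt5b, beside 18.2% of 27025 genes. The longer form CTTTGATC, which contains the core, was found in windows of Wnt11 and Wnt5b, or 5.26% of 38 genes beside 1.09% of all. The 250 bases before the start are printed below for the pair with the longer form, for Lef1 because it is itself held to be a target of β-catenin, and for Ctnnb1, the gene with the highest median of the set, whose windows held no match. Capitals mark the core in either orientation, and each sequence is written 5′ to 3′ along the gene.
Wnt11 (chr7:98834862-98835111, plus strand): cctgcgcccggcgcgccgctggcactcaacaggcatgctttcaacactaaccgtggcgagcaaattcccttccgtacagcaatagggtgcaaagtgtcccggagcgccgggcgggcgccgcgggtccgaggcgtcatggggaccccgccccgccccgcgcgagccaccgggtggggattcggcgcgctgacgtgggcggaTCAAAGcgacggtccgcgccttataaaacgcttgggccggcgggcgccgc
Wnt5b (chr6:119449387-119449636, minus strand): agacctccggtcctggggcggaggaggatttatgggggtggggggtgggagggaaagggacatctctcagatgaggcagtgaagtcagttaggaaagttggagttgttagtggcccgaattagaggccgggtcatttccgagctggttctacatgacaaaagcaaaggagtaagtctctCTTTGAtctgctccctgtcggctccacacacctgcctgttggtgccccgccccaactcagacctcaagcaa
Lef1 (chr3:131156044-131156293, plus strand): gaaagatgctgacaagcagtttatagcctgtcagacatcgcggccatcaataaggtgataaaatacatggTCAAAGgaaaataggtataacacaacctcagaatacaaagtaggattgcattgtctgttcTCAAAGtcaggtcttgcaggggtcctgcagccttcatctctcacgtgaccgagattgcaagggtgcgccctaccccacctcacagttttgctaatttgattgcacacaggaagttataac
Ctnnb1 (chr9:120933150-120933399, plus strand): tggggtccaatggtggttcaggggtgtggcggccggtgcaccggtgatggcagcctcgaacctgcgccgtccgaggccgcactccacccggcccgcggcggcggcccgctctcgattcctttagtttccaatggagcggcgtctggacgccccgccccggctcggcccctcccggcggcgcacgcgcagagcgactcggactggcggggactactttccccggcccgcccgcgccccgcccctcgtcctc

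The Wnt11 match began 50 bases before the start, and the Wnt5b match 71 bases before it. The Lef1 window held 2 matches, which began 180 and 120 bases before 1 of the 4 starts that RefSeq lists for this gene. RefSeq lists more than 1 start for each of these genes, and the other windows of Wnt11, Wnt5b and Lef1 held no match. The printed windows of Wnt5b, Lef1 and Ctnnb1 lie inside the annotated gene span. None of the printed windows overlaps an exon of the GENCODE annotation. A match describes the sequence alone, and nothing in these data shows binding.

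Wnt ligands were present at low levels. Of 19 ligand genes, 10 had a count in any cell, beside 66.6% of all genes. Wnt5a alone was counted in all 12 cells, beside 35.3% of all genes. The ligand counts summed to 10.1 CPM in cell 7, to a median of 20.5 CPM and to 70.2 CPM in cell 10 (29.7 ± 20.98 CPM, SD over 12 cells). No ligand had a median of 10 CPM or more, beside 36.3% of all genes. Wnt5a (chr14:28504750-28527448), a ligand known chiefly for signalling without β-catenin, ranged from 0.188 CPM through a median of 7.42 CPM to 26.3 CPM in cell 1. Wnt2 (chr6:17988940-18030585), which can signal through β-catenin, was counted in 10 cells, with a median of 4.91 CPM and up to 20.0 CPM in cell 3. Because long transcripts collect more reads, genes are compared with each other only on a level per length, scaled to 1000000 per cell and called TPM-like here. On that scale Wnt2 had the higher median (6.21 against 2.74 for Wnt5a) and was higher in 10 of 12 cells.

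Several other ligands rested on 1 cell. Wnt11 (chr7:98835112-98855195), another ligand of β-catenin-independent signalling, had 310 counts in cell 10, or 58.2 CPM (exact 95% Poisson interval 51.9 to 65.1). The 5 other cells that counted it had 5.45 CPM or less. Cell 10, the highest for Wnt11, had 1 count of Wnt5a and cell 12 had 2, which cannot be ranked at this depth. Wnt5b (chr6:119432531-119544347) was counted in 5 cells, and cells 6 and 1 led with 23.1 and 18.5 CPM. Its span overlaps Fbxl14 on the opposite strand, which was counted in 11 cells and had its highest value in cell 10 (21.03 CPM), where Wnt5b had no count. Whether the counting used strand is not given, and the part of Fbxl14 reads in the Wnt5b counts was not tested. Wnt9a was counted in 6 cells, the highest being cell 11 with 14.1 CPM. Wnt10b had 37 counts in cell 8 only (6.73 CPM), Wnt16 had 8 counts in cell 6 only, Wnt1 had 8 counts in cell 4 only, and Wnt7a had 2 counts in cell 1. Wnt2b was counted in 4 cells, at 1.23 CPM or less. Wnt3, Wnt3a, Wnt4, Wnt6, Wnt7b, Wnt8a, Wnt8b, Wnt9b and Wnt10a had no count, which over all 12 cells allows up to 0.0532 CPM.

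Porcn, the acyltransferase that lipidates Wnt proteins, was counted in 8 cells, with a median of 2.85 CPM and up to 10.3 CPM in cell 4. Wls, the carrier that takes lipidated Wnts to the surface, was abundant in every cell, from 268 CPM through a median of 631 CPM to 1703 CPM in cell 11. Trabd2b, a membrane protease that trims Wnts, had a median of 41.9 CPM with 234 CPM in cell 6, and the glypican gene Gpc4 a median of 41.1 CPM. Of the 8 genes in this list of ligand handling 6 were counted and 4 had a median of 10 CPM or more, beside 66.6% and 36.3% of all genes, while Notum and Gpc3 were at 0.

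Receptors and co-receptors were counted for 11 of 12 genes, and 4 of them in all 12 cells, beside 66.6% and 35.3% of all genes. Their sum ran from 49.8 CPM in cell 3 through a median of 97.0 CPM to 286 CPM in cell 10. Fzd2 (chr11:102604396-102608058) led the Frizzled genes. It stood at 29.2, 22.7, 7.12, 33.6, 11.7, 17.0, 86.5, 60.7, 35.0, 9.01, 10.8 and 25.3 CPM in cells 1 to 12. Cells 7 and 8 were thus highest and cells 3 and 10 lowest. Fzd7 (chr1:59482424-59486955) was more even, from 5.19 CPM through a median of 13.0 CPM to 25.5 CPM. Per length the medians were 19.0 for Fzd2, 8.17 for Fzd7, 4.37 for Fzd1, 3.05 for Lrp6, 2.42 for Lrp5 and 2.39 for Fzd4. Fzd2 was above Fzd7 in 9 of 12 cells, and Fzd7 above Fzd1 in 8. Fzd1 was above Lrp6 in 7 cells and Lrp6 above Lrp5 in 6, and with the longest transcript as length these were 5 cells, with the order of the medians of Fzd1 and Lrp6 turned, and 8 cells. Lrp5 was above Fzd4 in 8 cells, though their medians nearly met, Fzd4 above Fzd5 in 8, Fzd5 above Fzd8 in 9 and Fzd8 above Fzd3 in 9. Cells are not replicates, so no neighbours in this order were tested. Fzd2 held a median of 39.5% of the class per length.

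Lrp5, Lrp6 and Fzd4 shared 1 high cell. Lrp6 (chr6:134446476-134566965), a co-receptor that Wnts bring together with Frizzled, had 82.2 CPM in cell 10, 47.0 CPM in the next cell and a median of 14.7 CPM. Its relative Lrp5 (chr19:3584828-3686564) had 70.8 CPM in cell 10, 20.7 CPM in the next cell and a median of 8.67 CPM. Fzd4 (chr7:89404355-89413134), which is also the receptor for norrin in vessels, likewise had 70.8 CPM in cell 10 (exact 95% Poisson interval 63.8 to 78.3), 13.7 CPM in the next cell and a median of 6.23 CPM. In that cell endothelial genes were high, and their part in these values was not tested. Fzd5, Fzd3, Fzd8 and Fzd1 were counted in 10, 9, 11 and 10 cells, at highest values of 12.4, 12.5, 8.15 and 30.6 CPM. Fzd6 was counted in 6 cells at up to 3.42 CPM, Fzd9 in cell 9 only with 17 counts, and Fzd10 in none. Fzd1, Fzd2, Fzd7, Fzd8, Fzd9 and Fzd10 have a single exon, so reads from genomic DNA could not be told from transcripts.

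The receptors of β-catenin-independent signalling were measured beside them. Of 13 genes for other receptors and planar polarity 12 were counted, 5 in all cells, and 5 had a median of 10 CPM or more, beside 66.6%, 35.3% and 36.3% of all genes; the last pair of counts was near the background. Ryk, a receptor with an inactive kinase that binds Wnt5a, had a median of 116 CPM, Vangl1, a core polarity gene, 42.0 CPM, and Daam1, a formin that works after Dishevelled, 34.9 CPM. The list summed to 746 CPM in cell 10 and to 133 to 329 CPM in the other cells. Ror1 (72.5 CPM), Vangl1 (156 CPM), Daam1 (175 CPM), Prickle2 (99.7 CPM) and Ptk7 (62.3 CPM) were each highest in cell 10, beside 11.55% of all counted genes, and the other 7 counted genes were highest in other cells. The part of the endothelial genes of cell 10 in these values was not tested.

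Secreted inhibitors were led by Sfrp1 and Dkk2. Of the 10 genes 5 were counted, 1 of them in all 12 cells, and 2 had a median of 10 CPM or more. The shares of all genes were 66.6%, 35.3% and 36.3%. Sfrp2, Sfrp5, Wif1, Dkk1 and Dkk4 had no count in any cell, and Sfrp4 was counted in 2 cells at up to 2.32 CPM. The sum of the class still ran from 55.1 CPM in cell 9 through a median of 253 CPM to 539 CPM in cell 7. Sfrp1 (chr8:23411502-23449632), which encodes a secreted protein that binds Wnts with a Frizzled-like domain, was counted in every cell. It stood at 180.4, 33.6, 3.96, 148, 209, 526, 418, 143, 34.2, 173, 144 and 241 CPM in cells 1 to 12. Cells 6 and 7 were highest, cell 3 was lowest with 15 counts, and the median was 161 CPM. Per length the median was 102 for Sfrp1 and 14.3 for Dkk2, with Sfrp1 higher in 9 of 12 cells. Sfrp1 held a median of 64.0% of the class per length.

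Dkk2 (chr3:132085292-132180304), a Dickkopf gene whose protein binds LRP5 and LRP6, was counted in 11 cells. It stood at 29.0, 57.8, 68.3, 98.0, 6.77, 0, 0.761, 165, 10.3, 145, 9.38 and 0.351 CPM in cells 1 to 12. The values fell over a wide range, with cells 8 and 10 above 100 CPM and cells 6, 7 and 12 under 1 CPM. Cells 6 and 7, without appreciable Dkk2, were those with the most Sfrp1. Frzb (chr2:80411970-80447625), a relative of the Sfrp genes, was counted in 5 cells only: 8.69 CPM in cell 1, 43.8 in cell 5, 121 in cell 7, 10.7 in cell 9 and 30.6 in cell 10. Dkk3 (chr7:112116017-112159057), the divergent member of the Dickkopf family, had 1323 counts in cell 3, or 349 CPM (exact 95% Poisson interval 330.3 to 368), and none in the other 11 cells. The cell with Dkk3 was thus the cell with the least Sfrp1. Cell 3 also had the highest sum of 10 haematopoietic markers, at 160.0 CPM against 76.3 CPM in the next cell, with Ptprc and Itgam at 0 there. Of the fibroblast markers, Dcn had 223 CPM in cell 3, while the next cell had 12.4 CPM, and Pdgfra was highest there at 276 CPM, while the sum of the 10 fibroblast markers, 859 CPM, was under the median of 1504 CPM. The part of these genes in its Dkk3 was not tested.

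Inhibitor transcripts exceeded ligand transcripts in each of the 12 cells. Per length the ratio of the summed inhibitors to the summed ligands was 2.82 in cell 1, 7.85 at the median and 46.7 in cell 7. In cell 3 the ratio of 11.85 rested on Dkk3, which made 263 of the 312 TPM-like units of inhibitors there, beside 26.3 units of ligands. Sfrp1 by itself exceeded all ligands together in 11 of 12 cells, with a median ratio of 5.49 and a ratio of 0.087 in cell 3. The plot of inhibitors against ligands shows every cell on the inhibitor side. Among other extracellular inhibitors 5 of 8 were counted, near the 66.6% of all genes, and none had a median of 10 CPM. Kremen1, whose protein binds Dickkopf, had a median of 4.15 CPM. Igfbp4, a binding protein for insulin-like growth factors that also restrains Wnt receptors, had 917 CPM in cell 10, while the next cell had 17.3 CPM.

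**Figure D2:**
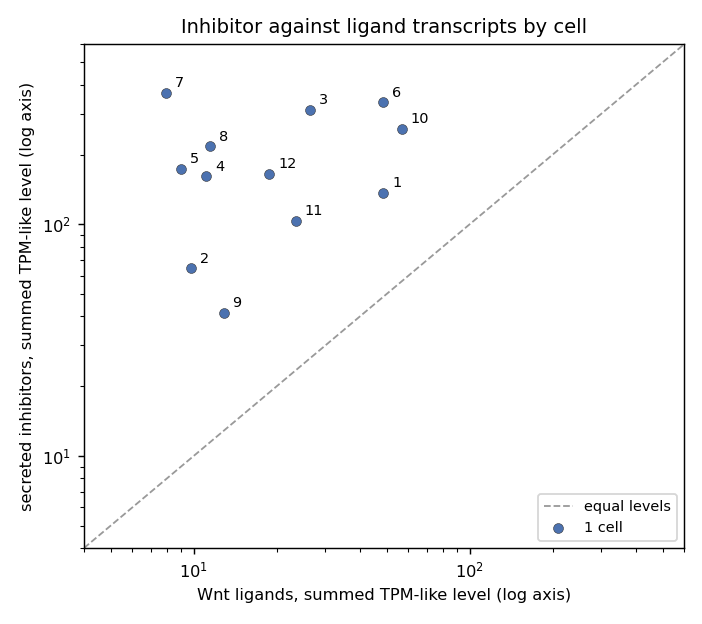
The summed level per length of secreted inhibitors (y axis, log scale, TPM-like units) is plotted against that of Wnt ligands (x axis, log scale, TPM-like units) for 12 numbered cells, and the dashed line marks equal levels. All 12 cells lie above the line, cell 1 nearest at a ratio of 2.82 and cell 7 farthest at 46.7.

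R-spondins are secreted proteins that raise Wnt signalling by taking the ligases ZNRF3 and RNF43, which remove Frizzled, from the surface through LGR receptors. No R-spondin reached a usable level: Rspo1, Rspo2 and Rspo4 had no count, and Rspo3 had 1 count, in cell 3. The receptors were present at low levels. Lgr4 was counted in 10 cells, with a median of 7.57 CPM and up to 21.6 CPM in cell 4. Lgr6 was counted in 10 cells, with a median of 2.95 CPM, 43.2 CPM in cell 12 and, in the next cell, 14.9 CPM. Lgr5, a stem cell marker in the gut, had 1 count, in cell 6. Znrf3 was counted in 11 cells, with a median of 5.94 CPM and up to 11.8 CPM in cell 10, and Rnf43 in none. Per length Lgr4 was above Znrf3 in 9 cells and Znrf3 above Lgr6 in 8. The class summed to 11.8 CPM in cell 7, to a median of 18.1 CPM and to 44.5 CPM in cell 12. Cell 10 counted neither Lgr4 nor Lgr6.

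Ctnnb1 had the highest median level per length of the set (111, beside 102 for Sfrp1). Ctnnb1 (chr9:120929216-120960507), whose protein serves both Wnt signalling and cadherin junctions, stood at 215, 213, 207, 168, 169.7, 200.6, 286, 166, 312, 1473, 396 and 334 CPM in cells 1 to 12. Cell 10 lay far above the rest, at 3.72 times the next cell, and held 7846 counts (exact 95% Poisson interval 1441 to 1506 CPM). The other 11 cells stayed between 166 and 396 CPM, and the median of all cells was 214 CPM. Ulk4 overlaps the span on the opposite strand, had a median of 0.719 CPM and had no count in cell 10. The endothelial genes Cdh5 and Pecam1 were high in the same cell (694 and 1422 CPM, with no more than 2.37 and 10.3 CPM in any other), and their part in the Ctnnb1 value was not tested. Per length Ctnnb1 held a median of 80.3% of its class.

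The scaffolds of the destruction complex did not share that peak. Axin1 (chr17:26138688-26195811), the scaffold that limits the complex, stood at 13.3, 14.3, 7.91, 16.8, 44.0, 26.3, 32.5, 33.8, 47.4, 34.4, 52.9 and 49.0 CPM in cells 1 to 12. It was low in cells 1 to 4 and highest in cell 11. Apc (chr18:34220924-34322552), the tumour suppressor that holds β-catenin in the complex, stood at 53.3, 30.9, 70.9, 115, 41.8, 45.4, 59.3, 15.1, 47.0, 51.8, 85.5 and 41.7 CPM. Cell 4 was highest and cell 8 lowest, and cell 10 was near the median of 49.4 CPM. Per length the medians were 111 for Ctnnb1, 24.2 for Axin1 and 8.67 for Apc, with Ctnnb1 above Axin1 in all 12 cells and Axin1 above Apc in 10. The class as a whole summed to 215 CPM in cell 8, to a median of 293 CPM and to 1559 CPM in cell 10.

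**Figure D3:**
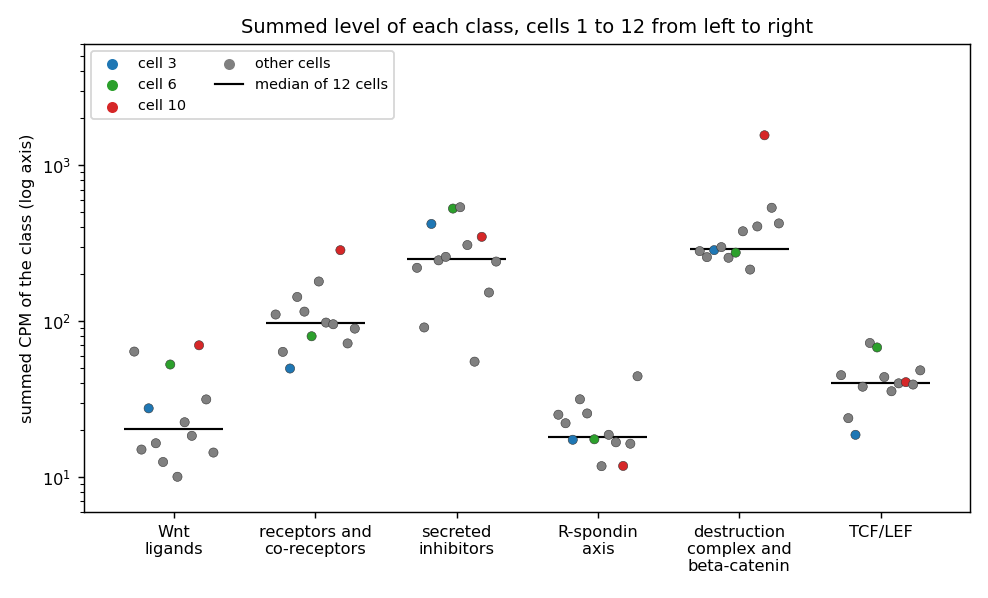
The summed CPM of each class of Wnt pathway genes (y axis, log scale) is shown for cells 1 to 12 from left to right within a class, with cells 3, 6 and 10 coloured and a bar at the median of 12 cells. Cell 10 is highest for ligands (70.2 CPM), for receptors (286 CPM) and for the destruction complex with β-catenin (1559 CPM), but not for secreted inhibitors, the R-spondin axis or TCF/LEF factors.

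All 20 genes of the list of other cytoplasmic transducers were counted, 18 in every cell, and 16 had a median of 10 CPM or more, beside 66.6%, 35.3% and 36.3% of all genes. Csnk1a1, a kinase that primes β-catenin for destruction, had a median of 425 CPM (109.9 per length), Ppp2r1a, the scaffold of a phosphatase, 283 CPM (239 per length), and Csnk1d, a related kinase, 103 CPM (59.3 per length). Gsk3b, the kinase that marks β-catenin, had a median of 43.9 CPM. The list summed to 1059 to 2069 CPM with a median of 1530.3 CPM, and cell 10, at 1447 CPM, was below that median. None of the 20 genes was highest in cell 10, beside 11.55% of all counted genes. That share of 20 genes is small, so nothing is read from the absence.

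TCF/LEF factors carry β-catenin to its target genes. Tcf7l2 (chr19:55741820-55933654) was counted in every cell and stood at 21.1, 12.8, 11.1, 26.4, 46.8, 43.0, 29.5, 32.0, 25.4, 30.2, 28.7 and 33.7 CPM in cells 1 to 12. Its range was narrow, with cells 5 and 6 highest and cells 2 and 3 lowest. Tcf7l1, known mainly as a repressor, was also counted in every cell, from 2.90 CPM through a median of 11.8 CPM to 24.7 CPM. Per length the 2 did not separate, with medians of 9.45 for Tcf7l2 and 8.72 for Tcf7l1 and each higher in 6 cells. With the longest transcript as length, however, Tcf7l2 was higher in 10 cells (medians 16.6 and 8.29). Tcf7 was counted in 7 cells at up to 6.50 CPM. Lef1 (chr3:131110471-131224356), printed above for its promoter, had 6 counts in cell 5 (1.19 CPM, exact 95% Poisson interval 0.438 to 2.60) and none in the other 11 cells. The class summed to 18.7 CPM in cell 3, to a median of 40.4 CPM and to 72.6 CPM in cell 5. The 10 nuclear cofactors in the table were all counted, 6 of them in every cell, and 5 had a median of 10 CPM or more. The shares of all genes were 66.6%, 35.3% and 36.3%. Per length, Aes, a short relative of the Groucho repressors, had a median of 374 (451 CPM), Tle1, a Groucho repressor, 8.42 (26.4 CPM) and Cdc73, which binds β-catenin, 6.61 (42.1 CPM), while Pygo2, a chromatin reader in the β-catenin complex, had 16.9 per length (21.8 CPM).

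Rank correlations were taken over 66 pairs of class sums, list sums, single genes and the number of genes counted in a cell. The highest correlation between measures that share no gene was that of Sfrp1 with the TCF/LEF sum. Spearman's rho was 0.88 over 12 cells and 0.85 without cell 10. This pair was chosen after the values were seen and is a description: the cells share their library preparation, and both values are scaled by the same total. Cell 6 was among the 2 highest cells and cells 2 and 3 among the 3 lowest in both.

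Target genes of β-catenin gave the readout side. Axin2 (chr11:108920349-108950783), the feedback target most widely used to report canonical Wnt signalling, had 13 counts in cell 6 (3.45 CPM, exact 95% Poisson interval 1.84 to 5.91), 1 count in cell 11 and none in the other 10 cells. Cell 10, where Ctnnb1 was highest, was 1 of these 10 cells without an Axin2 count, so nothing is read from that absence. Of a list of 15 targets, 12 were counted in any cell and 3 (Rnf43, Notum and Dkk1) in none, beside 66.6% of all genes counted in any cell. Ccnd1, Myc and Cd44, which answer to many signals besides Wnt, were the only ones counted in all 12 cells, beside 35.3% of all genes. Ccnd1, the cyclin of early G1, ran from 405 CPM in cell 10 through a median of 902 CPM to 2077 CPM in cell 6. Myc ran from 12.9 CPM through 44.0 CPM to 309 CPM in cell 8. Cd44, an adhesion receptor, ran from 141 CPM in cell 10 through 523 CPM to 1452 CPM in cell 5.

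Cell 6 held the highest value of 5 of the 12 counted targets, beside 8.68% of all counted genes: Axin2, Ccnd1 (1240 CPM in the next cell), Nkd1 (3.98 CPM, and 2.90 CPM in cell 3 as the only other cell), Apcdd1 (9.56 CPM, and 8.66 CPM in the next cell) and Lgr5 (1 count). Nkd1 and Apcdd1 encode feedback inhibitors of the pathway. Most of these values were low, and that of Lgr5 was a single read. Of 6 early stress genes, 3 were highest in cell 6: Fos, at 1318 CPM with 34.4 CPM in the next cell, Atf3, at 269.9 and 81.9 CPM, and Fosb, at 106.0 and 102.9 CPM. Egr1, Junb and Jun were highest in cells 12, 7 and 10, and the part of stress genes in the target values was not tested. Sp5, a transcription factor gene induced by Wnt in many tissues, was counted in cell 10 alone, at 13.9 CPM. Znrf3 was also highest in cell 10, at 11.8 CPM with 10.1 CPM in the next cell. Cell 10 thus held the highest value of 2 of the 12 counted targets, beside 11.55% of all counted genes. The targets therefore did not share 1 cell.

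**Figure D4:**
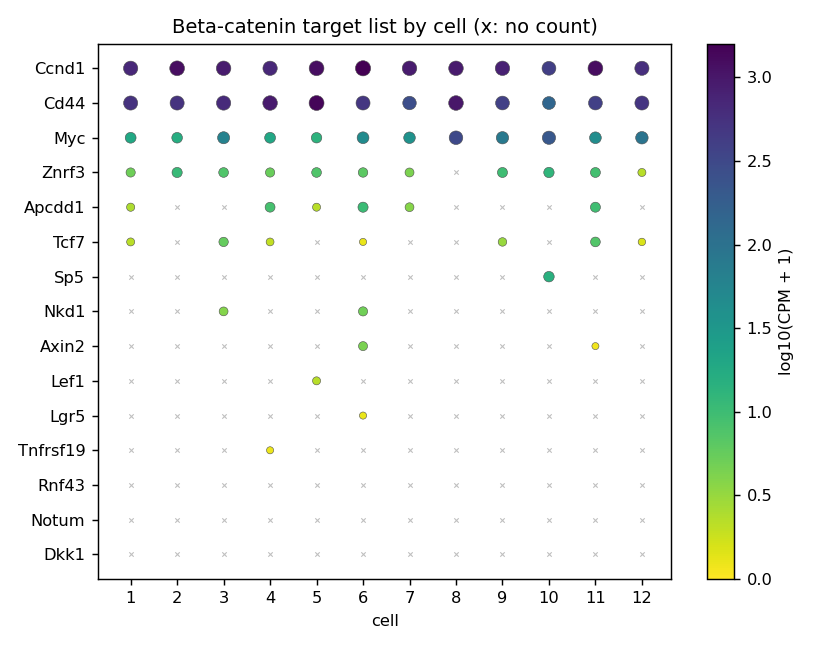
The 15 genes of the β-catenin target list (rows) are shown in cells 1 to 12 (columns); circle size and colour give log10(CPM + 1) and a cross marks no count. Ccnd1, Cd44 and Myc fill all 12 cells, Axin2 is counted in cells 6 and 11, Sp5 in cell 10, and Rnf43, Notum and Dkk1 nowhere.

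The spread between cells was set against genes of like level. The dispersion residual is log10 of the squared coefficient of variation minus a running median taken along genes in order of mean CPM, so 0 is the usual spread at that level. It could be given for 20 Wnt pathway genes with a mean of 5 CPM or more and counts in at least 3 cells; genes limited to fewer cells, such as Dkk3, are outside it. Wnt11, with 80.1% of its summed CPM in cell 10, and Lgr6, with 48.3% in cell 12, met the minimum only through that cell and so had to vary; the count and median over the 20 are therefore descriptions from which nothing is read. The median of the 20 was 0.23 and 11 lay above 0 (55%), beside 49.8% of all 9701 genes. Apart from Wnt11 (0.90) and Lgr6 (0.53), the widest spread was that of Frzb (0.99), Ctnnb1 (0.93), Dkk2 (0.76), Sfrp1 (0.69) and Fzd4 (0.66). The narrowest was that of Znrf3 (-0.39), Fzd7 (-0.37) and Tcf7l2 (-0.36), so a ligase gene, a receptor gene and a transcription factor gene were more even than most genes of their level.

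For part of the set that spread lay in cell 10. Without it the residual was -0.12 for Ctnnb1, -0.33 for Fzd4, -0.53 for Lrp5 and 0.07 for Lrp6, and the median was -0.02 over the 19 genes that still met the minimum. Over the same 19 genes, without Wnt11, the median with all cells was 0.09, so part of the difference from 0.23 came from the change of genes. For the inhibitors, whose highest cells are others, it was 1.07 for Frzb, 0.85 for Dkk2 and 0.77 for Sfrp1, and for Fzd2 it was 0.32.

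**Figure D5:**
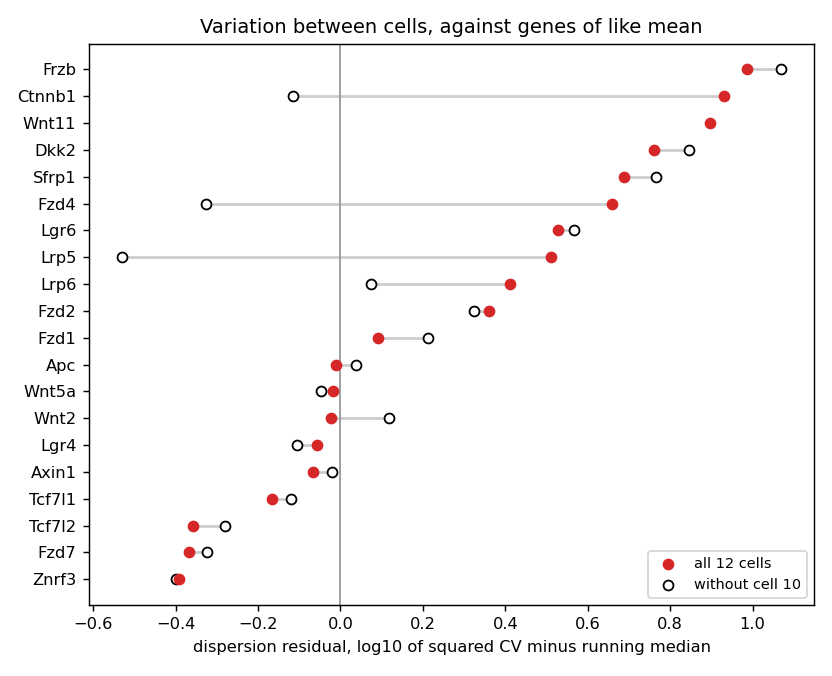
The dispersion residual (x axis, log10 of squared CV minus the running median) is shown for 20 Wnt pathway genes (y axis) over all 12 cells (filled) and without cell 10 (open), with a line at 0, the median of all genes. Ctnnb1 moves from 0.93 to -0.12 without cell 10, while Sfrp1 is at 0.69 and 0.77, Dkk2 at 0.76 and 0.85 and Frzb at 0.99 and 1.07; Wnt11 has no open point because its mean then fell under 5 CPM.

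The cells were also compared by how many genes were highest in each. Cell 10 was highest for 7 of the 40 counted genes (Ctnnb1, Lrp5, Lrp6, Fzd4, Fzd5, Wnt11 and Znrf3), or 17.5%, beside 11.55% of all counted genes. Cells 4 and 6 were each highest for 6 genes, or 15.0%, beside 7.25% and 8.68% of all. In cell 4 these were Apc, Lgr4, Fzd3, Fzd8, Wnt1 and Porcn, and in cell 6 Sfrp1, Tcf7l1, Wnt5b, Wnt16, Axin2 and Lgr5. Cell 10 in turn counted only 20 of the 59 genes, as did cell 8, while cell 12 counted 19. Lgr4, Lgr6, Porcn and Fzd3 were among the genes without a count in cell 10. These shares rest on few genes, and Lgr5, Wnt1, Wnt16 and Axin2 were placed by 1 to 13 counts, so nothing particular to the set is read from them. No cell was highest for the sums of all classes.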

How the data were processed

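Polyadenylated RNA of 12 single cultured CPCs was copied with Smart-Seq v4 and made into Nextera XT libraries. The authors mapped paired reads to mm10 with STAR 2.5.2b at default settings and used uniquely mapped ones. They deposited read counts for each gene in each cell, without normalization; the counting program, its annotation and its use of strand are not given in the sources used here.

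CPM were counts divided by the cell's total times 1000000. TPM-like levels were counts per base of merged exons scaled to 1000000 per cell, with exons and coordinates (from 1) from GENCODE vM21, which matched 98.4% of the symbols and all 59 genes. Promoters were RefSeq's on GRCm38.p6. A minimum of 1000 genes and a maximum of 10% mitochondrial counts, the study's filter, removed 0 cells. Cells were picked by hand and no doublet caller was run. Counts of all 66 pairs of cells were compared only to look for a library entered more than once, and the smallest chi-square per degree of freedom was 42.3. Labels tie no cell to an animal or a culture, so cells were not used as replicates, and no p-value was computed. Binomial and Poisson intervals were exact. Dispersion residuals needed a mean of 5 CPM and counts in 3 cells, and were tested on simulated data. Genes with a median of at least 20 CPM or a highest cell of at least 100 CPM, with Ctnnb1, Axin2 and Lef1, are given cell by cell, and from each further list those with the highest medians. The genes, classes, lists and markers were chosen with earlier results of these data known. The early stress genes, and Gsk3b, Pygo2, Ror1, Prickle2, Ptk7, Igfbp4, Kremen1, Cdh5, Pecam1, Acta2, Dcn and Pdgfra among the genes named, were picked after their values were seen. Alternatives varied the detection limit, the scaling, depth (thinned to 3453708 counts), transcript length and the dispersion window, and left out each cell. Tle5 is listed as Aes. Scripts ran under Python 3.11.15 with pandas 2.3.3, numpy 2.4.6 and scipy 1.17.1, and figures were drawn with matplotlib 3.10.9.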

Additional observations from a re-analysis of the deposited data

How the results depend on the processing

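Of 79 values of the 17 summary results under alternatives other than leaving out 1 cell, 69 moved by less than the spread between cells and 10 moved by more. With detection at 10 CPM or more, 26 genes were detected in any cell, 3 in every cell and a median of 11.5 per cell, and 20.3% of gene-by-cell values were detected; that share was 37.4% at 5 counts or more and 37.6% at 1 CPM or more. Per kilobase and scaled to 1000000, the median sum was 7.75 for the R-spondin axis and 19.7 for TCF/LEF, another unit than CPM. The share of TCF/LEF held by Tcf7l2, 46.5% per merged exon length, was 61.2% with the longest transcript as length and 65.7% with no length correction.

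Leaving out each cell in turn gave 38 to 40 genes in any cell, 11 to 13 in every cell, a median of 25 per cell and a detected share of 41.1 to 42.5%. Median sums were 18.4 to 22.5 CPM for ligands, 95.8 to 98.2 CPM for receptors, 246 to 259 CPM for secreted inhibitors, 17.5 to 18.7 CPM for the R-spondin axis, 286 to 299 CPM for the destruction complex and 40.0 to 40.7 CPM for TCF/LEF. Shares were 38.4 to 38.9% for Wnt2, 39.2 to 39.9% for Fzd2, 56.3 to 71.8% for Sfrp1, 41.5 to 57.7% for Lgr4, 79.9 to 80.7% for Ctnnb1 and 45.3 to 47.7% for Tcf7l2. The median dispersion residual ran from -0.02, without cell 10 and over 19 genes, to 0.30. Leaving out cells 3 and 10 together was chosen after seeing the data and moved none of the 17 past its limit. No paired analysis was possible because the cells form 1 group. A gene at 0 in 1 cell is limited only to 0.527 to 0.869 CPM, so genes under about that level could not be told from absent ones.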
